A study of Drosophila melanogaster with 12 samples.

Results

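The lysosomal alpha-mannosidase genes of Drosophila melanogaster are LManI, LManII, LManIII, LManIV, LManV and LManVI, and all 6 were measured. They were chosen by symbol in the platform annotation, among the probe sets that carry a single gene symbol. Each had 1 such probe set, so they make up 6 of 18769 tested probe sets and 6 of 11982 distinct named genes. Expression was measured on 12 Affymetrix 3' arrays of adult w1118 females, a white-eyed laboratory strain, 10 days old. The flies had been reared on cornmeal food until eclosion and were then kept at 25 °C for 10 days on holidic food, a diet made up of purified nutrients. It was left unmodified for some flies and given extra glucose, labelled as 100 g/L, for the rest. Whether 100 g/L is the amount added or the final amount is not stated in the labels. The 4 groups were midgut and whole fly on each diet, with 3 arrays a group, each from a pool of 10 dissected midguts or 5 whole flies. A whole fly contains its own midgut, so the tissue groups are not separate parts of the body.

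Lysosomal alpha-mannosidases remove mannose from the sugar chains of glycoproteins as these are taken apart in the lysosome, the acidic degradative compartment of the cell. Loss of the human enzyme causes the storage disease alpha-mannosidosis, in which mannose-rich sugar chains accumulate. Alpha-mannosidases of the endoplasmic reticulum and Golgi act at the opposite end of the pathway, trimming the sugar chains of newly made proteins. In the RefSeq gene table, LManIII, LManIV, LManV and LManVI were consecutive on chromosome arm 2L with 0 other genes between them, and LManI and LManII lay side by side elsewhere on the same arm. Probe sequences were not used here, so signal from one of these neighbouring genes cannot be told apart from signal of a close copy that binds the same probes.

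Signals are log2 values as deposited. A difference of 1 is a 2-fold difference, and levels of different probe sets cannot be set against each other. Array medians were 3.43 to 3.47 in midgut and 4.04 to 4.15 in whole fly, and arrays of a group correlated at 0.989 to 0.994. The 8 measured midgut markers, of 12 listed, lay above the array median on every array, and their mean level was 10.6 to 10.7 in midgut and 7.63 to 8.57 in whole fly. The 5 measured photoreceptor markers, of 8, had a mean of 2.61 to 2.80 in midgut, below the array medians, against 7.89 to 9.55 in whole fly. Other tissues were not absent from the midgut arrays. The 7 fat body markers had a mean of 8.87 to 9.28 in midgut, with 6 or 7 above the array median, against 9.94 to 10.5 in whole fly. For 6 measured muscle markers, of 8, the mean was 6.24 to 6.74 in midgut, with 5 or 6 above the median. In whole fly it was 9.14 to 10.1. Markers of the Malpighian tubule, the excretory organ attached to the gut, had a mean over 4 of 6 listed genes of 7.96 to 8.37 in midgut on the unmodified diet and 8.24 to 8.44 on glucose, against 5.72 to 6.10 and 5.74 to 6.56 in whole fly, and all 4 lay above the array median on every array. Of these 4, Oatp58Db, Oatp58Dc and Irk2 were higher on every midgut array than on any whole fly array, while tsh was not. No label says that replicates were reared apart, and the spread behind each p-value may therefore be partly technical.

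All 6 genes stood higher in midgut than in whole fly, and for every one the arrays of the 2 tissues did not overlap on either diet, where 18.9% of all probe sets were higher without overlap on the unmodified diet and 15.1% on glucose. On the unmodified diet all 6 passed the test of limma, a linear model with a variance shared across probe sets (adjusted p under 0.05, Benjamini-Hochberg over all tested probe sets), where 14.9% of all probe sets were called higher in midgut. On the glucose diet 5 of 6 passed, against a background of 11.8%. The median difference of the 6 genes was 3.35 on the unmodified diet and 2.61 on glucose, where the medians over all probe sets were -0.14 and -0.17. In bulk RNA, more cells of a type and more RNA per cell cannot be told apart.

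**Figure D1:**
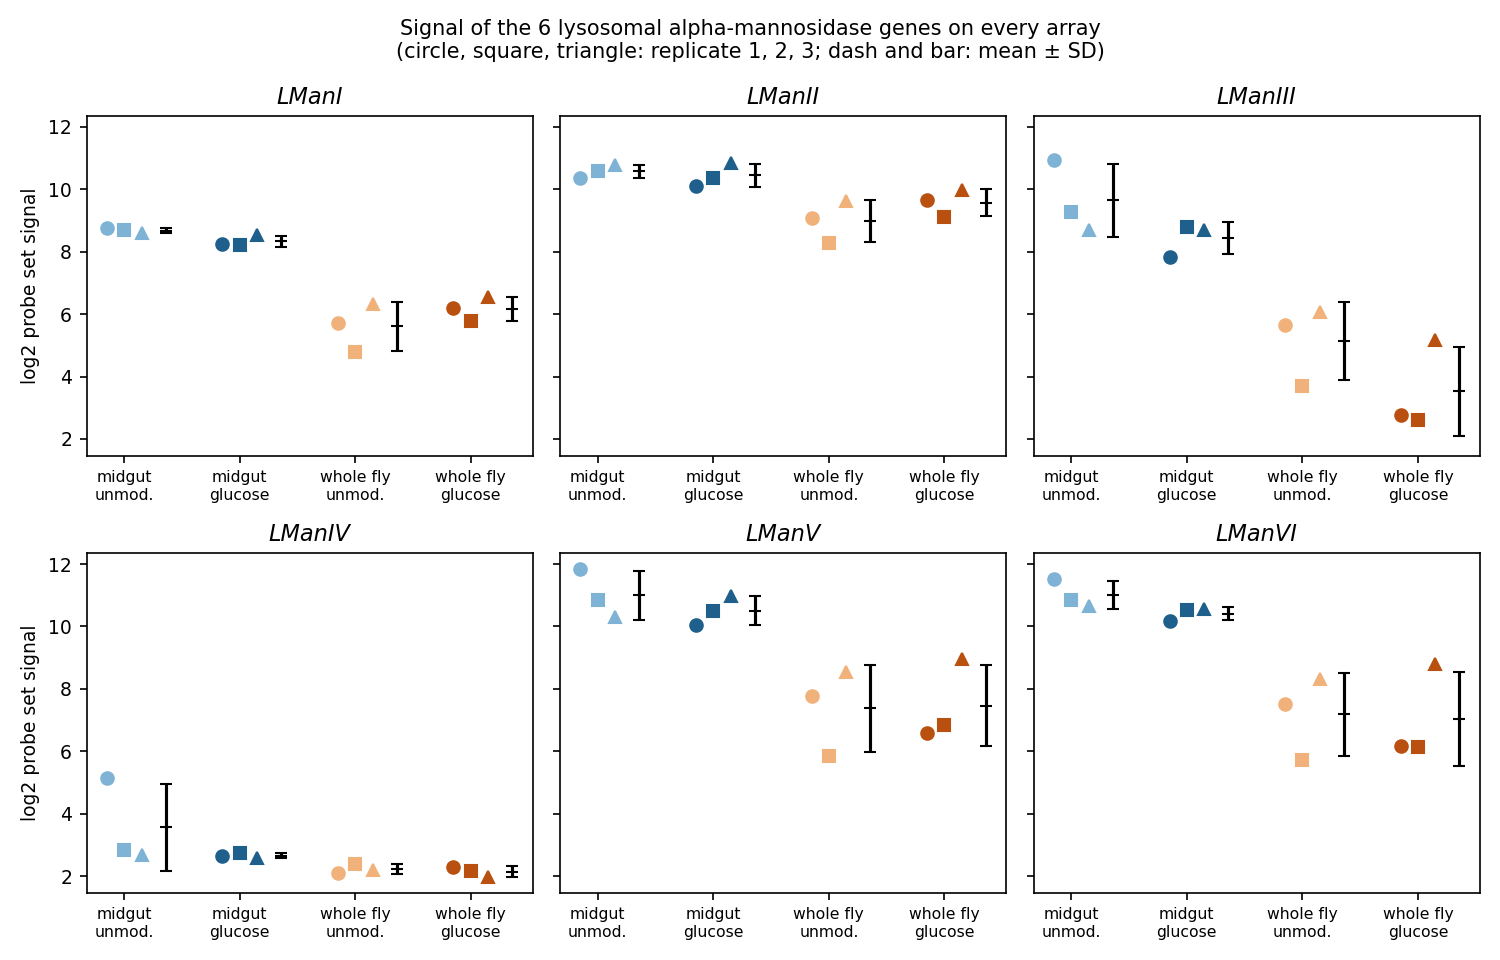
Log2 probe set signal (vertical axis) of each lysosomal alpha-mannosidase gene on the 12 arrays, by tissue and diet. Points are arrays and dashes with bars are the group mean ± SD (n = 3). For all 6 genes the midgut arrays lie above the whole fly arrays, and LManIV lies between 1.96 and 2.85 on all arrays but 1.

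LManIII had the largest tissue difference of the family. Its signal was 10.96, 9.28 and 8.70 in midgut on the unmodified diet and 5.64, 3.71 and 6.07 in whole fly. Midgut thus exceeded whole fly by 4.51 (SE 0.76, limma adjusted p 0.000204), a 22.7-fold difference that ranked 5 from the top among 18769 probe sets. On glucose it read 7.84, 8.78 and 8.70 in midgut but 2.78, 2.62 and 5.17 in whole fly. That difference was 4.92 (SE 0.76, limma adjusted p 0.000108), or 30.2-fold, and ranked 2. LManIII lay below the array median on whole fly glucose replicates 1 and 2 and on whole fly unmodified replicate 2, where signals approach background and a fold change may be compressed. Without whole fly unmodified replicate 2 the unmodified difference was 3.79, and without midgut unmodified replicate 1 it was 3.85.

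LManV and LManVI, the last 2 genes of the run of 4, were also far brighter in midgut. On the unmodified diet LManV gave 11.85, 10.85 and 10.29 in midgut and 7.76, 5.83 and 8.53 in whole fly, a difference of 3.62 (SE 0.70, limma adjusted p 0.000606). LManVI gave 11.52, 10.86 and 10.66 in midgut and 7.52, 5.72 and 8.32 in whole fly, a difference of 3.83 (SE 0.69, limma adjusted p 0.000352). These are 12.3-fold and 14.2-fold, and on glucose the differences were 3.05 (SE 0.70) for LManV and 3.38 (SE 0.69) for LManVI. Without whole fly unmodified replicate 2 the unmodified differences were 2.85 for LManV and 3.09 for LManVI. Without whole fly glucose replicate 3 those on glucose were 3.79 and 4.25, and that of LManIII was 5.74. The midgut arrays of each gene stood apart from every whole fly array.

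LManI read 8.76, 8.68 and 8.59 in midgut and 5.73, 4.77 and 6.31 in whole fly on the unmodified diet. The 3 midgut arrays lay close together while the whole fly arrays spread widely. Midgut exceeded whole fly by 3.08 (SE 0.30, limma adjusted p 1.44e-06), or 8.43-fold, and on glucose by 2.16 (SE 0.30). Its neighbour LManII had the smaller tissue difference of this pair. LManII read 10.36, 10.57 and 10.78 in midgut and 9.09, 8.27 and 9.62 in whole fly, a difference of 1.58 (SE 0.31, limma adjusted p 0.000683). On glucose the difference was 0.87 (SE 0.31, limma adjusted p 0.0321), with an adjusted p of 0.0567 without whole fly glucose replicate 1, 0.135 without whole fly glucose replicate 2, 0.0591 without midgut glucose replicate 2 and 0.128 without midgut glucose replicate 3.

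LManIV was close to background throughout, below the array median on 11 of 12 arrays. It read 5.15, 2.85 and 2.67 in midgut on the unmodified diet and 2.10, 2.39 and 2.18 in whole fly. Only the first of these arrays stood above the median. The tissue difference of 1.34 (SE 0.47, limma adjusted p 0.0287) was 0.54 without that array (midgut unmodified replicate 1), and its adjusted p was 0.0767 without whole fly unmodified replicate 1 and 0.0645 without whole fly unmodified replicate 3. On glucose LManIV read 2.66, 2.75 and 2.57 in midgut and 2.30, 2.16 and 1.96 in whole fly, without overlap. That difference of 0.52 (SE 0.47) did not pass, with an adjusted p of 0.394 that became 0.00306 when midgut unmodified replicate 1 was left out of the fit and 0.0328 after median centring.

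Centring each array on its median moved the tissue contrasts by 0.61 on the unmodified diet and 0.68 on glucose. The share of calls that were higher in midgut moved from 26.9% to 69.2% and from 22.3% to 72.5%. After centring all 6 genes were called higher on both diets, with differences of 1.95 to 5.12 and 1.19 to 5.59, but so were 59.1% and 60.3% of all probe sets. Of the 4 Malpighian tubule markers, 3 differed between the tissues in the same direction as these genes, and their part in the result was not tested.

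Other genes of sugar chain breakdown were for the most part lower in midgut. Of 8 measured lysosomal glycosidases other than the alpha-mannosidases, from 12 listed, 2 were called higher in midgut on the unmodified diet and 6 lower. Their median difference was -1.90, and 14.9% of all probe sets were called higher and 40.6% lower. The 2 higher ones were Gal, a beta-galactosidase, at 1.98 (SE 0.36), and beta-Man, a beta-mannosidase, at 0.88 (SE 0.10), the second named after its values were seen. Naglu, an N-acetylglucosaminidase of heparan sulphate breakdown, stood lower in midgut by a difference of -3.27 (SE 0.19), and Idua, the iduronidase of the same pathway, by -2.06 (SE 0.15). The 6 lower ones also included CG5731, named after its values were seen, which lay below the array median on all 6 arrays of each tissue. Ect3, another of the 6, lay below it on 4 of 6 midgut arrays, so the sizes of these 2 differences are not settled. After median centring the counts were 2 higher and 5 lower, where 59.1% of all probe sets were called higher and 26.4% lower.

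Of 11 measured genes for sugar chain processing in the endoplasmic reticulum and Golgi, from 13 listed, 1 was called higher in midgut on the unmodified diet and 8 lower, with a median of -1.84. The higher one was Edem2, a gene of glycoprotein quality control named after its values were seen, at 1.22. The alpha-mannosidase genes of this list were among those lower, alpha-Man-Ia at -3.13 (SE 0.21), alpha-Man-Ib at -2.72 (SE 0.16) and alpha-Man-IIb at -5.15 (SE 0.22). So was alpha-Man-IIa, named after its values were seen, at -1.84 (SE 0.12). In midgut alpha-Man-IIb lay below the array median on all 6 arrays, so the size of its difference is not settled. The beta-hexosaminidase gene fdl, which trims Golgi-modified chains, stood at -3.32 (SE 0.17). Of 17 measured other lysosomal proteins, from 19 listed, 8 were called higher and 6 lower on the unmodified diet, with a median of 0.08, where 14.9% of all probe sets were called higher and 40.6% lower. On glucose 4 were called higher and 8 lower, against 11.8% and 41.2% of all probe sets. After median centring the unmodified counts were 10 higher and 4 lower, where 59.1% of all probe sets were called higher and 26.4% lower. Lerp, the sorting receptor for lysosomal enzymes, was higher by 1.78 (SE 0.16) and Cln7, a lysosomal membrane transporter, by 1.55 (SE 0.17). CtsK1, a cathepsin, stood at -2.46 (SE 0.15). Only the last list had a median that changed sign with the scaling, on glucose, from -0.42 to 0.25 after median centring.

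**Figure D2:**
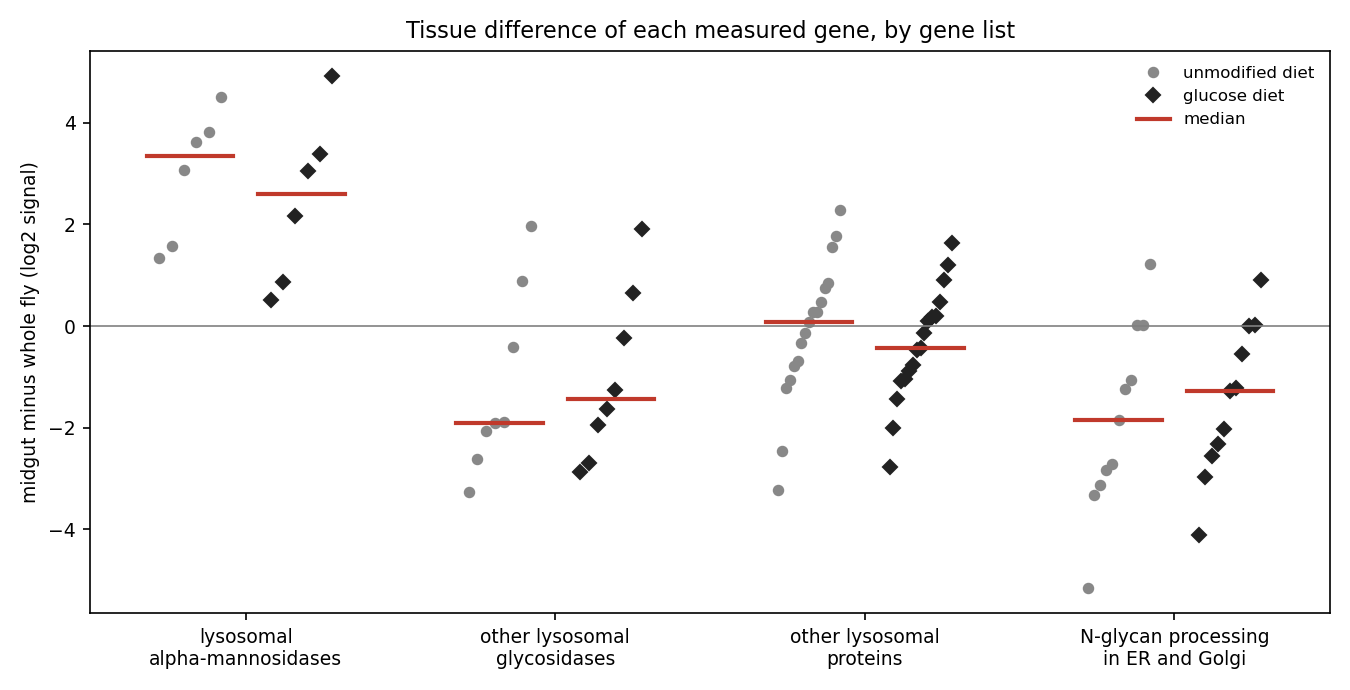
Midgut minus whole fly difference in log2 signal (vertical axis) of each measured gene, by list and diet; red lines are list medians. The 6 alpha-mannosidases all lie above 0 on both diets, while the other lysosomal glycosidases have medians of -1.90 and -1.44.

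In midgut, all 6 alpha-mannosidases had lower means on glucose than on the unmodified diet, but none passed the test. The limma adjusted p-values lay between 0.748 and 0.922, where 0.00533% of all probe sets were called. The median difference was -0.54, against 0.00 over all probe sets. With 3 arrays against 3, an exact permutation test allows no p under 0.1, and limma called 1 of 18769 probe sets in this comparison (1164 at an unadjusted p under 0.05). Of the 6 genes, 2 had an unadjusted p under 0.05, LManI at 0.0199 and LManVI at 0.0271, where 6.2% of all probe sets did. The fat body marker mean in midgut was 9.19 to 9.28 on the unmodified diet and 8.87 to 9.17 on glucose. Among these markers Yp2, Yp3, Lsp2 and apolpp were lower on glucose without overlap. The marker Lsd-1 was higher without overlap, and Yp1 and Fbp1 overlapped. The part of fat body RNA in these results was not tested.

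LManIII had the most negative difference, from a mean of 9.64 ± 1.17 to 8.44 ± 0.52 (SD, n = 3), a difference of -1.20 (SE 0.53, 95% interval -2.43 to 0.03). It ranked 24 from the lowest of 18769 differences. The lowest unmodified array, at 8.70, lay below the highest glucose array, at 8.78, so the diets overlapped. Without midgut unmodified replicate 1, whose signal was 10.96, the difference was -0.55 (SE 0.31).

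LManVI and LManI were the 2 genes whose midgut arrays did not overlap between diets, both lower on glucose, where 5.34% of all probe sets showed this. LManVI read 10.17, 10.52 and 10.55 on glucose, under the lowest unmodified value of 10.66. Its difference was -0.60 (SE 0.22, 95% interval -1.11 to -0.09, limma adjusted p 0.787), and -0.35 without midgut unmodified replicate 1. LManI read 8.23, 8.22 and 8.54 on glucose against at least 8.59 on the unmodified diet. Its difference was -0.35 (SE 0.12, 95% interval -0.63 to -0.07, limma adjusted p 0.748).

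The other 3 genes overlapped between diets in midgut. LManV read 10.06, 10.50 and 10.97 on glucose, a difference of -0.48 (SE 0.38), and LManII read 10.12, 10.37 and 10.84, a difference of -0.13 (SE 0.19). Without midgut unmodified replicate 1 the LManV difference was -0.06. LManIV differed by -0.90 (SE 0.57), and by -0.10 without that array.

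Midgut unmodified replicate 1 was the highest array of its group for all 4 genes of the run and not for both genes of the other pair. It exceeded the other 2 unmodified arrays by at least 1.68 for LManIII, 2.30 for LManIV and 0.66 for LManV and LManVI. Across all probe sets, 1.83% exceeded both of the others by at least 0.5 on this array. For LManI it was higher by 0.08 only, and for LManII it was the lowest array. The midgut marker mean of this array was 10.7. Its Malpighian tubule marker mean was 7.96, against 8.15 and 8.37 on the other 2 unmodified arrays. Its ovary marker mean was 3.69 over 11 measured genes of 13, with 8 of the 11 above the array median. The other 2 unmodified arrays had means of 2.87 and 3.75, with 5 and 4 above the median.

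Midgut glucose replicate 1 had the highest ovary marker mean of the midgut arrays, 4.76 with 9 of 11 genes above the array median, against 3.33 or less on the other glucose arrays. It was also the lowest glucose array for LManII, LManIII, LManV and LManVI. Without it the midgut diet difference was 0.04 for LManII, -0.90 for LManIII, -0.26 for LManV and -0.48 for LManVI. The part of ovary RNA in these results was not tested.

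**Figure D3:**
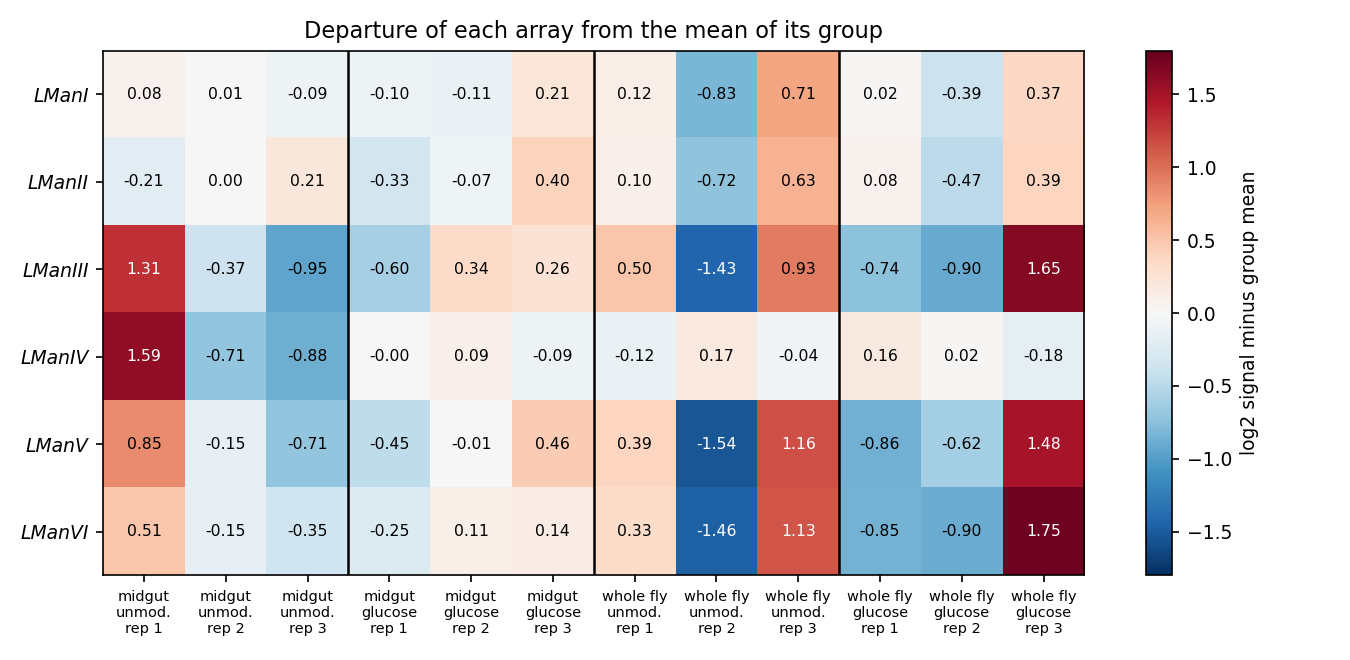
Log2 signal of each gene minus the mean of its group (colour and printed value), for the 12 arrays. LManIII, LManIV, LManV and LManVI depart upwards on midgut unmodified replicate 1, by 0.51 to 1.59, and LManIII, LManV and LManVI on whole fly glucose replicate 3, by 1.48 to 1.75.

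In whole flies the family did not share a direction. LManI and LManII had higher means on glucose, LManIII a lower one, and LManIV, LManV and LManVI differed by less than 0.2. None passed, where 3.11% of all probe sets were called, and the adjusted p-values were 0.291 to 0.971. For none of the 6 were the diets free of overlap, where 11.6% of all probe sets were higher and 13.7% lower without overlap.

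LManI read 6.19, 5.78 and 6.54 on glucose, a difference of 0.56 (SE 0.36, limma adjusted p 0.449). LManII read 9.65, 9.11 and 9.97 on glucose, a difference of 0.59 (SE 0.34, limma adjusted p 0.393). Without whole fly unmodified replicate 2 these differences were 0.15 for LManI and 0.22 for LManII. LManIII had a mean of 5.14 ± 1.26 on the unmodified diet and 3.52 ± 1.43 on glucose (SD, n = 3), a difference of -1.61 (SE 0.79, 95% interval -3.43 to 0.20, limma adjusted p 0.291) that was not called. It ranked 15 from the lowest of 18769 differences.

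LManV and LManVI had almost the same mean on both diets in whole flies. LManV read 6.60, 6.84 and 8.94 on glucose, a difference of 0.09 with a 95% interval of -1.72 to 1.90. LManVI read 6.18, 6.14 and 8.79, a difference of -0.15 with an interval of -2.08 to 1.77. These intervals are wide enough to hold a change of 2-fold or more either way. LManIV differed by -0.08 (SE 0.13) at signals near background.

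**Figure D4:**
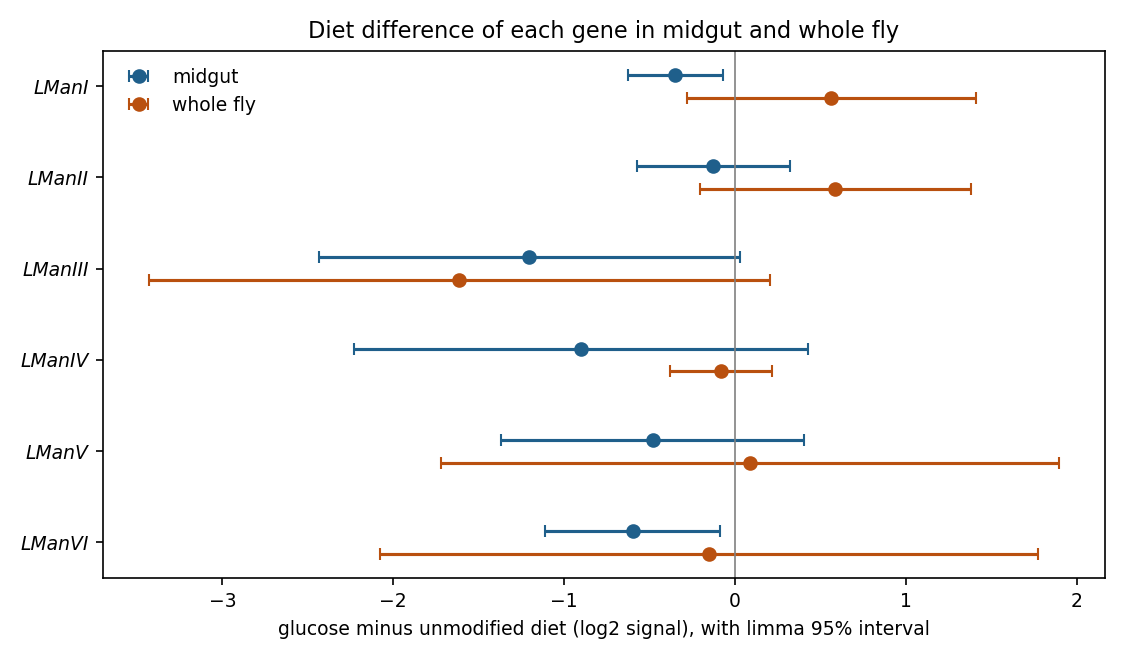
Glucose minus unmodified difference in log2 signal (horizontal axis) of each gene in midgut and whole fly, with limma 95% intervals. All 6 midgut differences lie below 0, from -1.20 to -0.13, while the whole fly differences run from -1.61 to 0.59.

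No member passed the test of the difference between the diet effects of the 2 tissues, where 0.0426% of all probe sets were called. The midgut effect was more negative than the whole fly effect for LManI, by -0.91 (SE 0.43, limma adjusted p 0.339), and for LManII, by -0.71 (SE 0.44, limma adjusted p 0.478). For LManIII the difference of effects was 0.41 (SE 1.08), and for the others it was -0.45 to -0.82. In each case the 95% interval held 0.

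Several of these genes departed together from their group means on the same whole fly arrays. The pooled SD within groups in whole flies was 1.43 for LManVI, 1.34 for LManIII and 1.34 for LManV, where the median of all probe sets was 0.15 and only 0.192% to 0.208% of probe sets had a larger one. LManI and LManII, at 0.61 and 0.57, were also above most probe sets, with 1.24% and 1.53% larger. On whole fly unmodified replicate 2, all 5 genes other than LManIV were the lowest of their group, by at least 0.82 to 1.93. Across all probe sets 4.06% lay at least 0.5 below both other arrays of the group on this array. The midgut marker mean was also lowest there, at 7.63 against 8.41 or more. The Malpighian tubule marker mean was 6.10, 5.72 and 5.81 on unmodified replicates 1, 2 and 3, while these 5 genes were highest on replicate 3. The part of either marker mean in the result was not tested.

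On whole fly glucose replicate 3, LManIII, LManV and LManVI exceeded both other arrays by at least 2.39, 2.10 and 2.61. Across all probe sets 1.34% exceeded both by at least 0.5 on that array. LManI and LManII were also highest there, by 0.35 and 0.31 over the next array. The midgut marker mean was 8.44 on that array, between 8.37 and 8.57 on the other 2. The Malpighian tubule marker mean was 6.56 on it, against 5.74 and 5.79, and its part in the result was not tested.

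Since several members departed together, the difference of 2 log2 signals on the same array was compared between diets for all 15 pairs. This comparison was chosen after the values were seen. The level of such a difference has no meaning between probe sets, and only its change between diets is described. LManIII lay below the array median on 3 of the 6 whole fly arrays, where its signal may be compressed, so unequal change of signal and unequal change of RNA cannot be told apart on those arrays. In whole flies the LManIII minus LManVI difference was -1.88, -2.01 and -2.25 on the unmodified diet and -3.40, -3.52 and -3.62 on glucose. All 3 glucose arrays lay below all 3 unmodified ones, and the SDs within groups were 0.19 and 0.11, against 1.26 to 1.52 for the signals of either gene alone. The change was -1.46 (exact permutation test, two-sided, p 0.1, the smallest that 3 against 3 allows).

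On glucose replicate 3, the glucose array on which LManIII lay above the median, the difference was -3.62. The LManIII minus LManV difference had the same order in whole flies, at -2.12, -2.12 and -2.46 on the unmodified diet and -3.82, -4.22 and -3.77 on glucose. It changed by -1.70 (exact permutation p 0.1), with SDs of 0.20 and 0.25. When each other probe set was set against LManVI in the same way, 7 of 18768, or 0.0373%, were lower on glucose without overlap, and 6 (0.032%), LManIII included, were lower by at least as much as LManIII. Against LManV, 11 (0.0586%) were lower without overlap and 8 (0.0426%) by at least as much. LManV and LManVI varied far more within groups than most probe sets, so a probe set that did not vary with them had little chance of separating the diets, and these shares describe that shared variation. LManV minus LManVI itself overlapped between the diets, with a change of 0.24.

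Of the 15 pairs, 4 did not overlap between diets in whole flies, and LManIII was in each. The other 2 were LManI minus LManIII, with a mean of 0.47 ± 0.52 on the unmodified diet and 2.64 ± 1.12 on glucose (SD, n = 3), and LManII minus LManIII, with 3.85 ± 0.61 and 6.05 ± 1.10. Against LManIII, 1.3% of all other probe sets were higher on glucose without overlap. LManIII also varied far more within groups than most probe sets, so that share has the same limit as those against LManV and LManVI. In midgut 1 of the 15 pairs did not overlap, LManIII minus LManV, at -0.89, -1.57 and -1.59 on the unmodified diet and -2.21, -1.72 and -2.28 on glucose. Its change was -0.72 (exact permutation p 0.1), where 0.032% of all other probe sets, LManIII included, were lower against LManV without overlap. The pooled SD of LManV in midgut was 0.65, against a median of 0.15 over all probe sets. A probe set that did not vary with it had little chance of separating the diets, so this share too describes shared variation. The LManIII minus LManVI change in midgut was -0.60 and overlapped.

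LManI minus LManII hardly varied in whole flies, at -3.36, -3.49 and -3.31 on the unmodified diet and -3.47, -3.33 and -3.43 on glucose. The change of -0.02 was smaller than the SDs within groups, 0.10 and 0.07. In midgut the change was -0.22 with overlap.

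**Figure D5:**
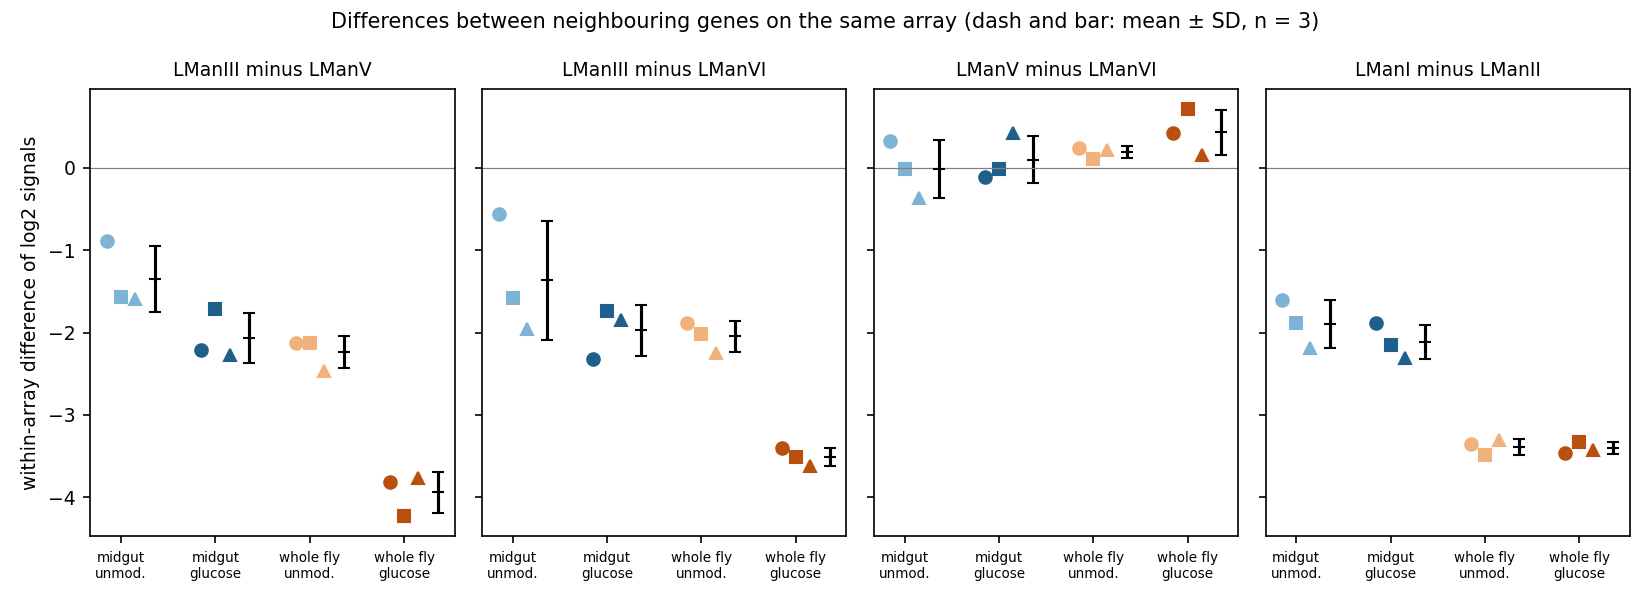
Difference of the log2 signals of 2 genes on the same array (vertical axis) for 4 pairs of members, by tissue and diet. The genes of a pair lie in the same run on the chromosome, but LManIII is not adjacent to LManV or LManVI. Circle, square and triangle are replicates 1, 2 and 3, and dashes with bars are mean ± SD (n = 3). In whole flies LManIII minus LManVI lies between -2.25 and -1.88 on the unmodified diet and between -3.62 and -3.40 on glucose, while LManI minus LManII stays between -3.49 and -3.31.

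Within each gene, the order of the 4 groups was the same at the top. Midgut on the unmodified diet was highest and midgut on glucose next, overlapping for LManII, LManIII, LManIV and LManV and not for LManI and LManVI. For all 6 genes the lower midgut group stood above the higher whole fly group without overlap, by 0.44 for LManIV and 0.87 for LManII up to 3.30 for LManIII. The 2 whole fly groups overlapped for every gene, with glucose higher for LManI, LManII and LManV and lower for LManIII, LManIV and LManVI.

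The nearest profiles over the 12 arrays were sought among 11976 other named genes, by the root mean square difference of log2 signals after each profile was centred on its own mean. LManV and LManVI were each nearer to one another, at 0.27, than to any other named gene. For LManVI the nearest genes outside the family were Alp9, at 0.50, and Alp10, at 0.54, both alkaline phosphatase genes, and CG15253 at 0.57. For LManV they were Alp10, Alp9 and CG15253, at 0.52, 0.53 and 0.60. Alp9 stood at 10.6 ± 0.29 in midgut and 6.90 ± 0.77 in whole fly on the unmodified diet (SD, n = 3).

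LManIII was less closely matched. Its nearest named gene outside the family was mat, at 0.82, and LManVI, at 0.86, ranked 2 among all named genes and LManV, at 0.98, ranked 5. LManI had CG10650, CG18585 and CG32115 nearest, at 0.19 to 0.20, while its neighbour LManII ranked 630. LManII had CG31370 at 0.18, pst at 0.20 and CG30015 at 0.24 nearest. LManIV had CG31089, CG10184 and cdi nearest, at 0.45 to 0.47. These likenesses are descriptions over 12 arrays in 4 groups.

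Of the 4 genes next to the family on the chromosome, 1 was called higher in midgut on the unmodified diet. Across all probe sets 14.9% were called higher there. On either side of the run of 4 lay CG12438 and CG42710, with unmodified tissue differences of -0.16 (SE 0.13) and 0.07 (SE 0.11), neither called. Before LManI lay ppk10, of the pickpocket family of sodium channels, at 0.18 (SE 0.12). After LManII lay RluA-1, named as a pseudouridine synthase, which was higher in midgut by 0.93 (SE 0.21, limma adjusted p 0.00213). CG12438 and ppk10 lay below the array median on all 12 arrays and CG42710 on 7, so their signals allow no comparison with the family. After median centring all 4 were called higher on the unmodified diet, by 0.46 to 1.55, but so were 59.1% of all probe sets. On diet none of the 4 passed in either tissue, with differences of -0.28 to 0.10.

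No listed gene of the wider pathway was called on diet in midgut. None of the 8 other lysosomal glycosidases, 17 other lysosomal proteins or 11 sugar chain processing genes passed, and the list medians were 0.14, -0.07 and 0.03. Among the glycosidases, 6 of 8 had higher means on glucose, where the median difference over all probe sets was 0.00. These 6 included CG5731, below the array median on all 6 midgut arrays, and Ect3, below it on 4 of 6. Gal stood at -0.59 (SE 0.39) and Idua at 0.33 (SE 0.14). Of the other lysosomal proteins, 14 of 17 had lower means. Ppt2, a lysosomal thioesterase, stood at -0.38 (SE 0.14), Lerp at -0.31 (SE 0.17), Sap-r, the saposin precursor, at -0.30 (SE 0.16) and CtsB, cathepsin B, at -0.29 (SE 0.13).

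In whole flies, 3 of the 11 processing genes were called lower on glucose and 0 higher. Across all probe sets 1.8% were called lower and 1.32% higher. Called or not, 9 of the 11 had lower means and 2 higher ones, and the list median was -0.42. The Golgi mannosidase genes alpha-Man-Ia fell by 0.90 (SE 0.11, limma adjusted p 0.0334) and alpha-Man-IIb by 0.67 (SE 0.14, limma adjusted p 0.0493), and fdl fell by 0.67 (SE 0.10, limma adjusted p 0.0371). Leaving out whole fly glucose replicate 2 gave 6 processing genes called lower, and leaving out any other of the 6 whole fly arrays gave 0, when 0 to 2 of all probe sets were called. The 3 differences stayed between -0.97 and -0.55, with limma adjusted p of 0.0175 to 0.156. The ovary marker mean was 9.24 to 10.3 on the unmodified diet and 8.79 to 9.49 on glucose in whole flies. Among these markers Cp15, orb, osk, bcd, vas and Marf1 were lower on glucose without overlap. The marker grk was higher without overlap, and Vm26Aa, Vm32E, Cp36 and Cp38 overlapped. The part of ovary RNA in this result was not tested. None of the glycosidases or other lysosomal proteins passed in whole flies, with medians of -0.02 and 0.23. Cln7 stood at 0.66 (SE 0.16, limma adjusted p 0.0600), Gnptab, which encodes the enzyme that tags lysosomal proteins for sorting in mammals, at -0.56 (SE 0.14) and cathD, cathepsin D, at 0.33 (SE 0.11).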

How the data were processed

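The authors deposited 1 table of log2 probe set signals, with 1 column for each array. The submitters' processing notes name Affymetrix Expression Console as the software. Neither its algorithm and version nor a joint or separate normalization of the 2 tissues is given in the sources read, and the values, 1.44 to 14.1, show the log2 scale. Of 18952 probe sets, 183 Affymetrix controls were left out. Gene names came from the platform annotation, and a check of its gene identifiers in RefSeq's gene table led to 0 changes of symbol. The deposited values name no genome build, so that table served for names and gene order only.

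Diet differences were fitted with limma 3.58.1 in R 4.3.3 on the 6 arrays of a tissue, and tissue contrasts and the difference of diet effects over all 12 arrays, with no covariate. Tests were two-sided with adjustment by Benjamini-Hochberg, across 18769 probe sets, with calls made where the adjusted p was under 0.05. Pathway genes were represented by their brightest probe set, and no set test was run. The fits were tested on simulated data.

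Named genes were the 6 members, from each list up to 4 genes with the smallest p in each diet comparison, the 3 nearest profiles of each member, and the flanking genes. The members and lists were chosen with earlier results of these data known, so no count over them is independent support. Same-numbered midgut samples deviated together from their group means, with correlations of 0.39, 0.31 and 0.36, which meets the rule for pairs; this rests on the data, as the labels do not say what a number shares. In whole flies the correlations were 0.20, 0.31 and -0.01, and the numbers were not taken as pairs. Values printed in the report are unpaired unless the replicate block is named. The replicate block was an alternative that changed no call of a member in midgut, with limma adjusted p of 0.386 to 0.708 there. Alternatives were removal of the dimmest 40% of probe sets, a trended and robust variance prior, median centring, quantile normalization, array weights, a 2-fold threshold, the replicate block, a 12-array fit and leaving out each array. The number of arrays limits the precision.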

Additional observations from a re-analysis of the deposited data

How the results depend on the processing

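The count of called members was 0 for diet in midgut, and for the difference of diet effects, under every alternative run, the replicate block in midgut included. In whole flies the replicate block gave 2 called members instead of 0, LManII at 0.59 (adjusted p 0.0416) and LManIII at -1.61 (adjusted p 0.0462), with 1711 probe sets (9.12%) called against 584; whole fly numbers did not meet the rule for pairs, and the block changed no other count. Without 1 array the counts on diet stayed at 0, and the tissue counts ranged from 5 to 6 on the unmodified diet and from 4 to 6 on glucose. Directions reversed without 1 array for diet in midgut for LManII (-0.33 to 0.0353), for diet in whole fly for LManIV (-0.17 to 0.00718), LManV (-0.68 to 0.67) and LManVI (-1.03 to 0.41), and for the difference of effects for LManIII (-0.062 to 1.24), LManV (-1.15 to 0.20) and LManVI (-1.01 to 0.43). None of these was called in any setting, and their cause was not tested. The trended prior gave LManIV an adjusted p of 0.0741 in the tissue contrast without added glucose. The whole fly changes ranged from -1.56 to -1.38 for LManIII minus LManVI and from -1.82 to -1.56 for LManIII minus LManV without 1 array, and were -1.53 and -1.79 after quantile normalization, settings added after the data were seen. In midgut LManIII minus LManV ranged from -0.90 to -0.49. Averaging probe sets was not run, since each member has 1. LManIV was among the dimmest probe sets removed from the whole fly and 12-array fits, and in midgut its difference stayed at -0.90 after that removal. Signals near background limit LManIV throughout and LManIII on 3 whole fly arrays.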
